A study of Mus musculus with 16 samples.

Results

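The genes described here encode the protein subunits of the cytosolic ribosome in neonatal mouse brain. They were taken as every gene whose array probes map, by transcript accession, to a RefSeq protein-coding mouse gene with an Rpl or Rps symbol. This gave 76 genes, 30 of the small and 46 of the large subunit, measured with 134 probes, out of 45616 distinct genes and other features and 56605 probes on the array. All 76 RefSeq genes that match the rule were on the array. The brains came from C57BL/6 pups at postnatal day 1 (P1), and total RNA of each was labelled with Cy3 and hybridised to a 1-colour Agilent array. Pups of 4 groups were compared, with 4 animals each and 16 arrays in all. The sires' spermatozoa were used fresh, were freeze-dried, were freeze-dried and given 5 Gy of X-rays, or were freeze-dried and kept at 95 °C for 1 h. The groups are called fresh, freeze-dried, irradiated and heated below, and the pups themselves received no treatment named in the labels. The irradiated and heated groups share freeze-drying with the freeze-dried group, so the last is their direct control, and the comparison with fresh spermatozoa adds freeze-drying. The labels number the neonates, in part with compound numbers, and do not say which pups were littermates. P-values therefore measure the spread between these 16 animals, some of which may share parents.

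The cytosolic ribosome reads messenger RNA and joins amino acids into protein. Its small subunit decodes the message, and its large subunit forms the peptide bond and holds the exit tunnel. The proteins are needed in matching amounts, and their mRNAs are among the most abundant in growing tissue. Many of these mRNAs begin with a C followed by a run of pyrimidines, the 5′ terminal oligopyrimidine (TOP) tract. Through it the growth-controlling kinase mTORC1 regulates their translation. In the newborn brain, dividing progenitors and growing neurons both have a high demand for ribosomes. A surplus of some free ribosomal proteins, Rpl5 and Rpl11 above all, can bind Mdm2 and stabilise p53.

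Start-site sequences are shown because the TOP tract is a known feature of many of these genes, and the windows show which of them carry it at the annotated start. RefSeq promoter windows on GRCm38.p6, 250 bases before to 50 bases after the annotated start, were at hand for 56 of the 76 genes, in 66 windows. A C at the annotated start with at least 4 further pyrimidines after it was present in 19.7% of those windows, against 2.51% of all 32851 windows in the table. Such a tract began within 10 bases of the start on the sense strand in 54.5% of member windows and 30.7% of all windows. The letters TATAA lay in the 50 bases before the start in 6.06% of member windows and 4.93% of all. The median GC content was 58.2% and 52.7%. Each line gives 50 bases of the gene's own strand, 5′ to 3′, of which the annotated start is base 31, and capitals mark the pyrimidine tract. The first 6 genes carry a tract at or beside the start, and in the last 2 none begins within 10 bases of it. Pyrimidine runs in Rps15 and Rpl4 begin farther upstream, end before the start and are left unmarked.
Rpl28, chr7:4792935-4792984, plus strand: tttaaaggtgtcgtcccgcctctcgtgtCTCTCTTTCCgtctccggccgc
Rps6, chr4:86857348-86857397, minus strand: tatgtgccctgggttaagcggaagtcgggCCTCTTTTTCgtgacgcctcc
Rplp2, chr7:141447621-141447670, plus strand: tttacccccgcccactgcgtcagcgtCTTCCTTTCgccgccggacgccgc
Rpl38, chr11:114668550-114668599, plus strand: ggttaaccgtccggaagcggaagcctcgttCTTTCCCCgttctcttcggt
Rpl18, chr7:45718041-45718090, plus strand: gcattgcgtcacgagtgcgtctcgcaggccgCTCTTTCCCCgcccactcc
Rps24 (first of 2 annotated starts), chr14:24490648-24490697, plus strand: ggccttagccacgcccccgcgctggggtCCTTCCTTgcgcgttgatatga
Rps15, chr10:80292401-80292450, plus strand: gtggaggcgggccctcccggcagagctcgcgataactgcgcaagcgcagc
Rpl4, chr9:64173357-64173406, plus strand: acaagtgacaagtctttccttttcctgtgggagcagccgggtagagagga
The 13 genes with the tract exactly at the start had a median log2 difference of -0.075 in irradiated minus freeze-dried brain, and 13 of 13 were lower. The 43 genes with a window but no tract at the start had a median of -0.077, and 37 of 43 were lower. In heated minus freeze-dried brain the medians of the same classes were 0.025 and -0.059. The genes lie on 19 chromosomes, with 14 of them on chromosome 7 and 4 on the X chromosome.

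Each level below is the log2 of a signal after subtraction of its own array's 75th percentile, so a level of 0 is at that percentile and each further unit doubles the signal. Across the 16 arrays 59.9% to 66.1% of spots were well above background, and the 75th percentile ranged from 1043 to 1412 intensity units. The arrays came from 2 slides. On slide 1 were all freeze-dried animals together with numbers 1 and 2 of the fresh and irradiated groups. On slide 2 were all heated animals together with numbers 3 and 4 of those groups. The freeze-dried and heated groups therefore share no slide. The 4 Y-linked marker genes were low on 6 of the 16 arrays, which were 2 fresh, 0 freeze-dried, 1 irradiated and 3 heated animals, so the balance of the sexes differed between groups. Single arrays also carried signal of other tissue. The summed level of 5 skin genes was up to 47.7 in the freeze-dried group against at most 4.37 in the other groups. That of 6 muscle genes reached 10.9 in the fresh group against at most 1.253 elsewhere. Hox genes of hindbrain and spinal cord were low on fresh 2, freeze-dried 2 and heated 2 and 4.

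The ribosomal protein genes gave strong and steady signals. All 134 probes passed the filter, and the brightest probe of each of the 76 genes was above background, by the scanner software's flag, on 16 of 16 arrays. Of these 76 probes, 73 ranked among the 1000 brightest of 26477 features tested. A probe's brightness is a property of the probe as well as of its transcript, and levels of different genes are not ranked against each other as abundances. The probes of Rpl10, Rpl41, Rplp2 and Rps18 had the highest mean levels, 6.96, 6.83, 6.83 and 6.79. Rpl10 is a large-subunit protein needed late in subunit maturation, and its 16 values lay between 6.86 and 7.04. The dimmest probes were those of Rpl37 at -3.75, Rpl22 at 3.76, Rpl5 at 4.08 and Rpl13a at 4.67. The Rpl37 probe had a median signal of 92.1 intensity units, so values of Rpl37 rest on a signal far below those of the other genes.

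Animals within a group differed little in these genes. The within-group SD, from 12 residual degrees of freedom, had a median of 0.072 over the 76 genes and of 0.15 over the 26401 other features. Over the 545 other features at or above the 10th percentile of the members' levels the median was 0.085. The levels of 34 of the 76 genes were averages over the 10 spots of a probe. Among the members' probes printed in a single spot the median SD was 0.086. Rps2, a small-subunit protein near the mRNA entry channel, had the lowest SD, 0.035, with 16 values between 5.38 and 5.50. Rpl31 followed with an SD of 0.047. The largest SDs were those of Rps20 at 0.35, Rpl14 at 0.32, Rpl13a at 0.28 and Rpl37 at 0.24. In the freeze-dried group Rps20, a protein of the small-subunit head, measured 5.90, 5.20, 6.30 and 6.38. In the irradiated group it measured 6.36, 6.32, 6.21 and 5.61. Freeze-dried 2 and irradiated 4 were thus the low arrays for Rps20. Rpl14 measured 6.46, 6.36, 6.46 and 5.26 in the irradiated group, where irradiated 4 again stood apart. Rpl4, which lines the exit tunnel, measured 5.46, 4.62, 5.16 and 5.26 in the freeze-dried group, with freeze-dried 2 lowest. All 10 of the genes with the largest SD were measured with probes printed in a single spot.

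**Figure D1:**
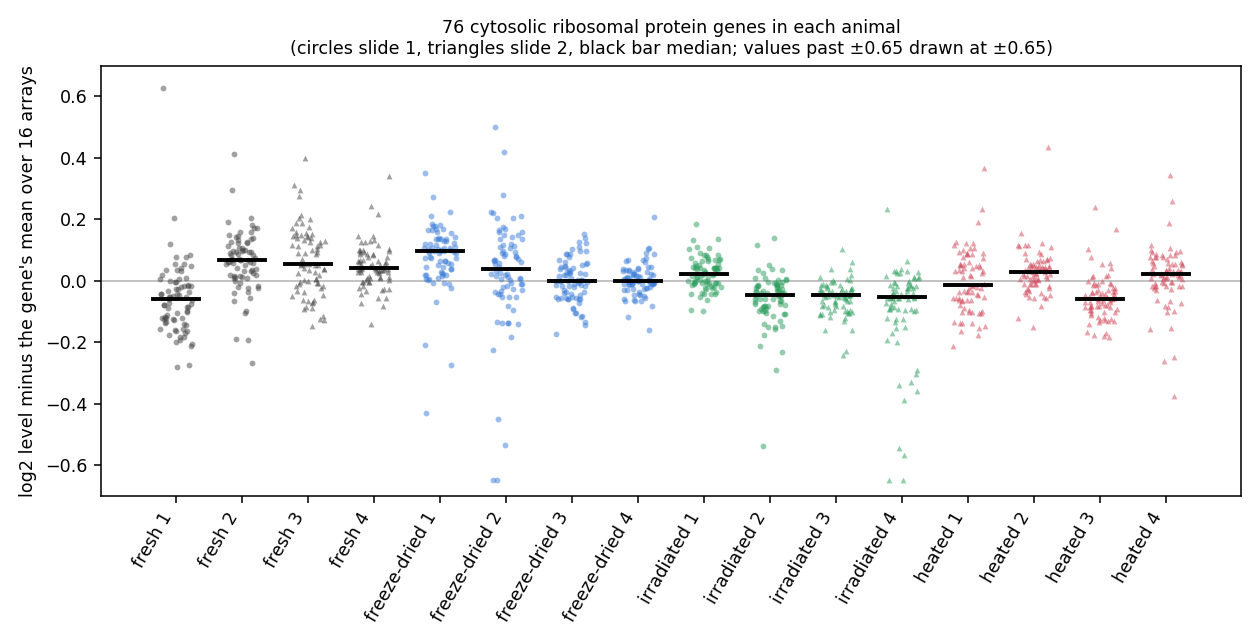
Log2 level of each of the 76 genes minus its mean over the 16 arrays, 1 column of points per animal, with the median as a black bar. The medians lie between -0.061 and 0.095, and irradiated 2, 3 and 4 are at -0.047, -0.048 and -0.055, while low single points gather in freeze-dried 2 and irradiated 4.

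The level of the whole set differed between animals by a few hundredths of a log2 unit. After each gene was centred on its mean over all arrays, the median over the 76 genes was -0.061, 0.068, 0.053 and 0.040 in the fresh animals. It was 0.095, 0.038, -0.0016 and -0.00080 in the freeze-dried animals. The irradiated animals had medians of 0.022, -0.047, -0.048 and -0.055, and the heated animals -0.015, 0.029, -0.059 and 0.022. The groups overlapped in these medians, and their pooled within-group SD was 0.046. Fresh 1, the array with muscle signal, was the lowest of the fresh group, and 20 of the 76 genes had their lowest value of all arrays there. In irradiated 3 only 4 of 76 genes were above their own median over the arrays, in heated 3 only 7, and in freeze-dried 1, 67.

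Freeze-drying alone gave no called gene, and the split of directions over the set depended on the processing. Of the 76 genes 37 were higher and 39 lower in freeze-dried than in fresh brain, with a median log2 difference of -0.0029, against 0.0040 over all features. Within slide 1, 58 of 76 were higher, with a median of 0.042 against 0.028 over all features. With quantile normalization 52 of 76 were higher, and 50 of 76 were so in the authors' deposited log2 table. Adjusted for Y-linked signal 31 of 76 were higher. Limma called 0 members and 0 of all 26477 features (0% of them) at an adjusted p under 0.05. At an unadjusted p under 0.05 there were 4 members, 5.26% of the set, against 9.72% of all features. Groups did not overlap for 1 gene on the high side, Rpl10a, and for 1 on the low side, Rpl31. Over all features 2.29% lay wholly higher and 1.87% wholly lower. Rpl31, which sits at the rim of the exit tunnel, measured 6.32, 6.40, 6.39 and 6.33 in fresh and 6.28, 6.18, 6.14 and 6.30 in freeze-dried brain. The difference was -0.14 (SE 0.05, n = 4 and 4, adjusted p = 0.429). A second probe of Rpl31, printed in 10 spots, gave 0.098 in the opposite direction. Rpl30 and Rpl27a were 0.11 and 0.12 higher, each with an adjusted p of 0.508. Rpl4 and Rpl13a were each 0.34 lower (SE 0.14 and 0.19). Without freeze-dried 2 those values were -0.17 and -0.17.

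Irradiation of the freeze-dried spermatozoa went with slightly lower levels across the set, though single animals overlapped. In the centred median over the set irradiated 1, at 0.022, lay above freeze-dried 3 and 4, at -0.0016 and -0.00080. The pooled within-group SD of these medians was 0.046. The gene counts below all come from the same 4 animals per group. In irradiated compared with freeze-dried brain 68 of 76 genes (89.5%) were lower, with a median log2 difference of -0.069, a change of -4.67%. Over all features 44.3% were lower and the median was 0.018. The levels of 34 members rest on probes printed in 10 spots. Among the 240 other probes printed so, 83.8% were lower, with a median of -0.066. Of the members' own single-spot probes 59 of 76 were lower, with a median of -0.065, against 44.8% of other single-spot probes. Both subunits lay on the low side, with 27 of 30 small-subunit and 41 of 46 large-subunit genes lower and medians of -0.066 and -0.073. Limma called 0 members, as it called 0 of all features (0%). At an unadjusted p under 0.05 there were 8 members (10.5%), all lower, against 7.24% of all features. For 4 genes (5.26%) every irradiated animal was below every freeze-dried one, against 1.98% of all features. No member lay wholly higher, against 2.80% of all features. Among 355 other features at or above the 25th percentile of the members' levels, 62.8% were lower, with a median of -0.020.

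Rps24, a small-subunit protein mutated in some families with Diamond-Blackfan anaemia, had the smallest p in that comparison. It measured 6.58, 6.57, 6.51 and 6.63 in freeze-dried and 6.51, 6.44, 6.33 and 6.46 in irradiated brain. The groups did not overlap, and the difference was -0.14 (SE 0.05, adjusted p = 0.68). Other probes of Rps24 gave 0.065, in the opposite direction, and -0.23. Rps6, the small-subunit protein phosphorylated by S6 kinase downstream of mTORC1, measured 5.62, 5.49, 5.59 and 5.50 in freeze-dried brain. In irradiated brain it measured 5.53, 5.41, 5.36 and 5.36, and the groups overlapped in irradiated 1. Its difference was -0.14 (SE 0.06, adjusted p = 0.68). Rpl7a and Rpl28 were lower by the same order, at -0.14 and -0.16, with adjusted p = 0.68 for both. On the high side stood Rpl23 at 0.10, Rpl4 at 0.11 and Rps20 at 0.18, with adjusted p from 0.786 to 0.837. Rpl23 went to -0.0070 without freeze-dried 1, where it was low at 5.35. A second Rpl23 probe, with a within-group SD of 0.056 against 0.15, gave -0.076. Rpl4 and Rps20 went to -0.053 and -0.070 without freeze-dried 2.

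The lower median kept its sign under every processing tried, between -0.148 with array median scaling and -0.019 in the authors' deposited log2 table, where 54 of 76 genes were lower. Array median scaling moved the median of all features too, from 0.018 to -0.061. On slide 1 alone, with all freeze-dried animals but only irradiated 1 and 2, the median of the members was -0.053, with 66 of 76 genes lower. Those 2 irradiated animals had centred medians of 0.022 and -0.047, and slide 2 held no freeze-dried animal. Without freeze-dried 2 and irradiated 4 the median difference of the members was -0.051, with 71 of 76 lower. Markers of dividing progenitors were lower in 10 of 12 genes with 0 called, and their summed level ranged from 40.9 to 45.9 in freeze-dried and from 39.3 to 43.0 in irradiated brain. Other markers also lay to one side, with 7 of 7 microglia, 7 of 7 oligodendrocyte lineage and 7 of 8 astrocyte markers higher and 5 of 5 skin markers lower, and 0 called. Hox genes were higher in 12 of 12, with a median of 0.68. Erythroid, Y-linked and muscle genes were lower in 6 of 6, 4 of 4 and 5 of 6, with medians of -0.18, -1.61 and -0.15. None of these was called. Cerebellar, choroid plexus, endothelium, neuron and pituitary markers lay on both sides. The summed level of the microglia list was 9.68 to 9.73 in freeze-dried and 10.1 to 11.3 in irradiated brain, and that of the oligodendrocyte lineage list 15.9 to 18.7 and 18.4 to 19.5. That of the astrocyte list was 96.1 to 111.7 and 107.5 to 110.2. The part of any of these lists in the result was not tested. In a piece of tissue, fewer cells with many ribosomes and less ribosomal protein mRNA per cell cannot be told apart.

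**Figure D2:**
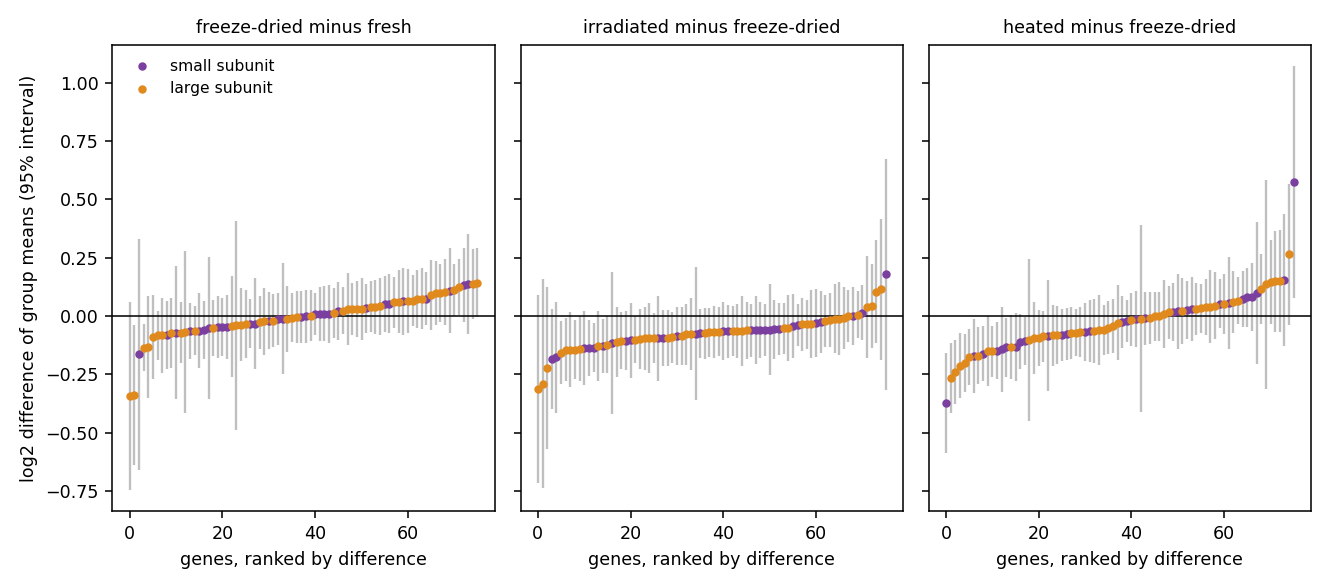
Log2 difference of group means for each of the 76 genes in 3 comparisons, ranked, with the 95% interval from limma as a grey line, small-subunit genes in purple and large-subunit genes in orange. In irradiated minus freeze-dried 68 points lie below 0, and in heated minus freeze-dried 47 do, with Rps20 the highest point at 0.58.

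Heating of the freeze-dried spermatozoa was followed by the single call in the set. Rpl18, a large-subunit protein, measured 5.52, 5.58, 5.47 and 5.40 in freeze-dried and 5.20, 5.24, 5.18 and 5.28 in heated brain. The groups did not overlap, and Rpl18 fell by 0.27 on the log2 scale (SE 0.07, 95% interval -0.42 to -0.12), 0.83-fold, with an adjusted p of 0.0473 by limma. This is 1 of 76 genes, against 4.11% of all features called in either direction. A second Rpl18 probe gave -0.29. The call did not hold with the slide as a block, where the difference was -0.12 (adjusted p = 0.792). The fresh animals measured 5.31 and 5.55 on slide 1 and 5.23 and 5.30 on slide 2, and the irradiated animals 5.46 and 5.39 on slide 1 and 5.26 and 5.34 on slide 2. Over 29 alternatives the adjusted p ranged from 0.0195 to 0.999 and stayed under 0.05 in 8. Leaving out any of 13 single arrays, all but fresh 1, 2 and 3, took it past 0.05, to at most 0.131.

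Rpl28 and Rps15 stood just outside the threshold. Rpl28, a large-subunit protein, measured 5.59, 5.67, 5.60 and 5.47 in freeze-dried and 5.31, 5.38, 5.29 and 5.39 in heated brain, a difference of -0.24 (SE 0.06, adjusted p = 0.0505). Rps15, a protein of the small-subunit head, measured 5.55, 5.79, 5.47 and 5.36 against 5.16, 5.22, 5.18 and 5.12, a difference of -0.37 (SE 0.10, adjusted p = 0.0516). Neither pair of groups overlapped. With the slide as a block the differences were -0.092 and -0.16. In the fresh group Rps15 measured 5.44 and 5.66 on slide 1 and 5.22 and 5.29 on slide 2, so both fresh animals of slide 2 lay below both of slide 1. Rps20 was 0.58 higher in heated brain (SE 0.23, adjusted p = 0.149) with no overlap, and 0.33 higher without freeze-dried 2. Rpl4 was 0.26 higher, and 0.096 without freeze-dried 2. Rpl36a was 0.15 higher, and -0.037 with the slide as a block.

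Over the set, 47 of 76 genes were lower in heated than in freeze-dried brain, with a median of -0.028 against 0.027 over all features. At an unadjusted p under 0.05 there were 15 members (19.7%), against 24.0% of all features. For 12 genes (15.8%) all heated animals were below all freeze-dried ones, against 8.72% of all features, and for 2 (2.63%) they were all above, against 12.2%. After adjustment for Y-linked signal the median was 0.0024, with 38 genes on either side. Progenitor markers were lower in 11 of 12 genes, and 4 of them fell (Mki67, Top2a, Cenpa and Eomes). Their summed level ranged from 40.9 to 45.9 in freeze-dried and from 40.2 to 43.8 in heated brain, and their part was not tested. Of 8 astrocyte markers 7 were higher and 2 rose (Gfap and Slc1a2). Of 9 cerebellar markers 7 were lower and 2 fell (Zic2 and En2). In the choroid plexus list of 7 genes 1 fell (Otx2), while 4 were higher. In the endothelium, neuron and oligodendrocyte lineage lists of 6, 10 and 7 genes, 1 each rose (Flt1, Syt1 and Pdgfra). In these 3 lists 4, 6 and 6 genes were higher, and 2, 4 and 1 lower. The 2 lower endothelial genes were Cldn5 at -0.33 and Tek at -0.20. Lower without a call were 11 of 12 Hox, 5 of 5 skin, 6 of 6 erythroid, 4 of 4 Y-linked and 5 of 6 muscle genes. The 2 pituitary genes were higher, without a call. Of 7 microglia markers all were higher and 0 were called. The share called over all features was 4.11%. The freeze-dried and heated groups shared no slide, so the marker calls cannot be told apart from a difference between slides. The balance of the sexes differed too, with Y-linked genes low in 0 freeze-dried and 3 heated animals. On heated 2 and 4, the Hox-low arrays, the centred mean of the cerebellar list was -1.21 and -1.21. On heated 1 and 3, also of slide 2, it was 0.27 and 0.25. The part of the Hox-low arrays in the cerebellar calls was not tested.

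**Figure D3:**
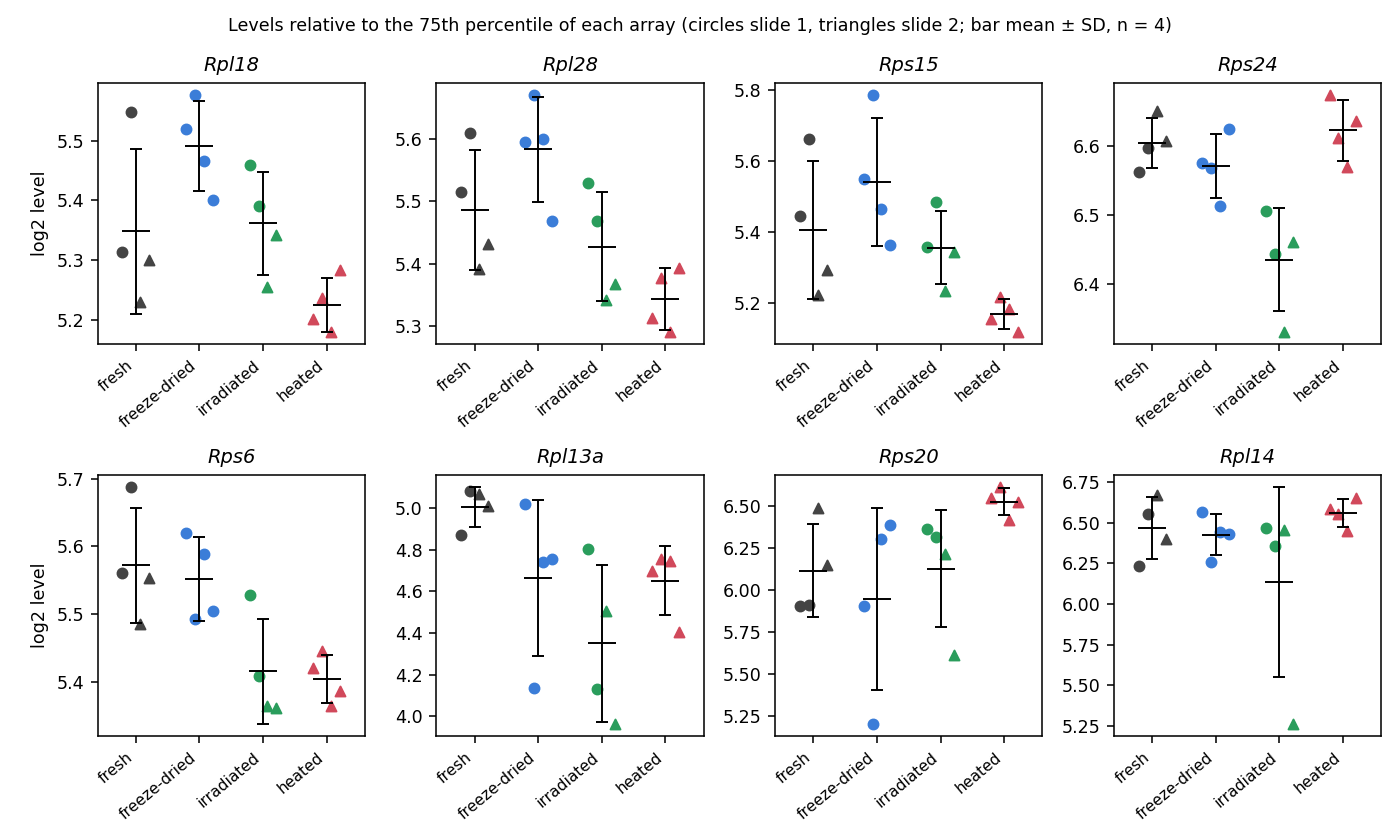
Log2 level of 8 genes in each animal, by group, with circles for slide 1, triangles for slide 2 and a bar for the mean ± SD of 4 animals. Rpl18, Rpl28 and Rps15 do not overlap between freeze-dried and heated animals, their fresh and irradiated animals lie lower on slide 2, and the wide irradiated bar of Rpl14 comes with a single low animal at 5.26, while the irradiated values of Rpl13a are spread from 3.96 to 4.80.

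Irradiated brain compared with fresh brain also had lower medians, though less steadily. In it 64 of 76 genes (84.2%) were lower, with a median of -0.060 against 0.022 over all features. Limma called 0 members, against 1.47% of all features. At an unadjusted p under 0.05 there were 10 members (13.2%), all lower, against 16.7% of all features. For 6 genes (7.89%) all irradiated animals were below all fresh ones, against 4.22% of all features, and for 0 were they all above, against 4.91%. Rpl13a, which leaves the ribosome to form part of the GAIT complex in inflammation, had the largest difference. It measured 4.87, 5.08, 5.07 and 5.01 in fresh and 4.80, 4.13, 4.51 and 3.96 in irradiated brain, a difference of -0.66 (SE 0.19, adjusted p = 0.101) with no overlap. Rps24 was 0.89-fold, with a difference of -0.17 (SE 0.05, adjusted p = 0.106) and no overlap. With the mean of its 3 probes Rps24 was called, at -0.28 and an adjusted p of 0.0369. Rpl5 and Rpl11, which with 5S RNA bind Mdm2, were -0.23 and -0.17 (adjusted p = 0.149 and 0.18). Rpl13 was -0.15, and 0.018 by its probe in 10 spots. The median was -0.0084 within slide 1 and -0.10 within slide 2, -0.0022 with quantile normalization and -0.0010 in the authors' deposited log2 table. The difference between irradiated and fresh brain over the set therefore depended on slide and scaling.

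Heated brain compared with fresh brain had 55 of 76 genes lower, with a median of -0.023 against 0.028 over all features. Limma called 0 members, against 2.89% of all features. At an unadjusted p under 0.05 there were 6 members (7.89%), against 17.8% of all features. For 6 genes (7.89%) all heated animals were lower, against 4.26%, and for 0 were they all higher, against 7.04%. Rps6 measured 5.56, 5.69, 5.48 and 5.55 in fresh and 5.42, 5.44, 5.36 and 5.39 in heated brain, a difference of -0.17 (SE 0.06, adjusted p = 0.132) without overlap. Rps9, a small-subunit protein that binds early in assembly, was -0.15 (adjusted p = 0.152), also without overlap. Rps15 was -0.24, and -0.089 within slide 2. On the high side Rps20, Rpl3 and Rpl29 were 0.41, 0.091 and 0.062 above fresh, none called.

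Heated minus irradiated brain, both from treated freeze-dried spermatozoa, had 48 of 76 genes higher, with a median of 0.035 against 0.010 over all features. Limma called 0 members, against 1.02% of all features. At an unadjusted p under 0.05 there were 3 members (3.95%), against 13.9%. For 4 genes (5.26%) all heated animals were higher, against 7.38%, and for 1 (1.32%) they were all lower, against 5.89%. Rps24 measured 6.51, 6.44, 6.33 and 6.46 in irradiated and 6.67, 6.61, 6.57 and 6.64 in heated brain. Its difference of 0.19 (SE 0.05, adjusted p = 0.0881) was the closest to a call. Rpl35 and Rpl11 were 0.18 and 0.15 higher (adjusted p = 0.263 and 0.271), both without overlap. Rps15, Rpl18 and Rpl28 were -0.19, -0.14 and -0.083. The median went to -0.019 with quantile normalization.

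The intervals show how large a change these arrays leave room for. The 95% interval of a gene's difference had a median reach of 0.13 on the log2 scale to either side of the estimate. It lay wholly within a log2 change of 0.32 either way for 67 of 76 genes in freeze-dried minus fresh brain and for 66 in irradiated minus freeze-dried. In heated minus freeze-dried brain it did so for 58, and in irradiated minus fresh, heated minus fresh and heated minus irradiated for 66, 67 and 65. The widest interval, reaching 0.50 to either side, was that of Rps20.

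The proteins of the ribosomal stalk, which recruits elongation factors, were measured with little spread. Rplp0 measured 6.05, 6.21, 6.06 and 6.19 in fresh, 6.17, 6.35, 6.14 and 6.15 in freeze-dried, 6.19, 6.12, 6.10 and 6.08 in irradiated and 6.13, 6.15, 6.02 and 6.18 in heated brain. All groups overlapped. Its differences over the 6 comparisons ran from -0.08 to 0.07, and those of Rplp1 from -0.05 to 0.04. Rplp2 was lower in irradiated than in fresh brain at -0.13 (SE 0.05, adjusted p = 0.196), without overlap.

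Among proteins with known roles in disease or outside the ribosome, Rps19, the gene most often mutated in Diamond-Blackfan anaemia, differed by -0.06 to 0.08 over the 6 comparisons. Rps14, which lies in the region deleted in the human 5q- syndrome, differed by -0.06 to 0.05. Rpsa, also known as the laminin receptor, differed by -0.11 to 0.11. Rps27a, made as a fusion with ubiquitin, differed by -0.11 to -0.02. Rpl38, whose mutation alters Hox mRNA translation and the axial skeleton in mice, differed by -0.05 to 0.02, and its fresh animals measured 6.32, 6.51, 6.68 and 6.57. Rpl10a differed by -0.09 to 0.10, Rpl41 by -0.06 to 0.05 and Rpl22 by -0.09 to 0.03. Rpl3, at the peptidyl transferase centre, differed by -0.01 to 0.09. None of these was called in any comparison. The 4 X-linked genes are Rpl10, Rpl36a, Rpl39 and Rps4x. Rps4x measured 4.95, 5.21, 4.91 and 4.94 in fresh and 5.21, 5.23, 5.06 and 5.06 in freeze-dried brain, and differed by -0.17 to 0.13 over the comparisons.

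Probes of the same gene did not always point the same way. Of 43 genes with more than 1 probe, 24 had probes on both sides of 0 in heated minus freeze-dried brain. The widest range was that of Rps18, whose 3 probes gave 0.15, -0.24 and -0.091. The 2 probes of Rps10 gave 0.097 and -0.29, and those of Rpl7a -0.20 and 0.15. The 5 probes of Rpl39 ranged from -0.21 to 0.15. For these genes the direction depends on the probe.

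The array prints 58 of the 134 probes in 10 spots and 76 in a single spot. Probes in 10 spots had a median within-group SD of 0.069 and a highest of 0.15, and single-spot probes had 0.086 and 0.35. In irradiated minus freeze-dried brain 55 of 58 probes in 10 spots were lower, with a median of -0.086, and 59 of 76 single-spot probes were lower, with a median of -0.065. In heated minus freeze-dried brain 49 of 58 and 42 of 76 were lower, with medians of -0.094 and -0.010. In freeze-dried minus fresh brain 46 of 58 were higher in 10 spots and 34 of 76 in single spots. The 240 other probes printed in 10 spots lay on the same side. Of them 83.8% were lower in irradiated minus freeze-dried brain, with a median of -0.066, and 75.4% in heated minus freeze-dried brain, with a median of -0.068. The 33887 other single-spot probes had 44.8% and 45.6% lower, with medians of 0.017 and 0.021. The lower values of the ribosomal protein probes in 10 spots were thus of a size with those of all other probes printed so.

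**Figure D4:**
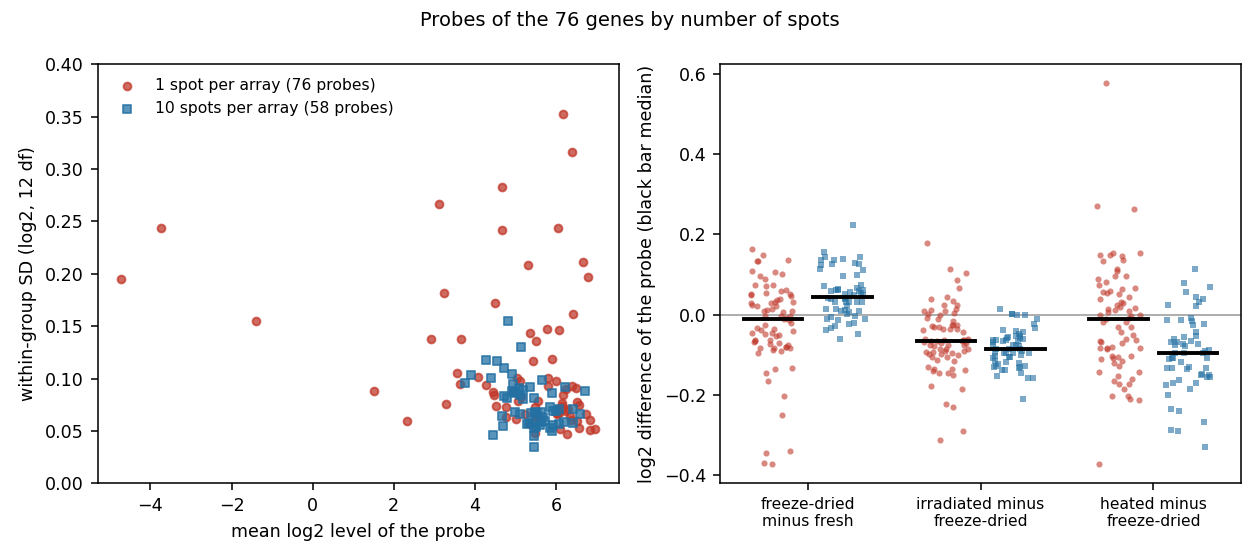
Left, within-group SD of each of the 134 probes (log2) against its mean level; right, log2 difference of each probe in 3 comparisons with the median as a black bar, single-spot probes in red and probes in 10 spots in blue. The highest SDs, up to 0.35, are of single-spot probes, and in heated minus freeze-dried brain the medians are -0.010 and -0.094.

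Genes that work with the ribosome were taken as further lists. Proteins of or like the ribosome whose symbols fall outside the rule had 9 of 10 genes lower in irradiated minus freeze-dried brain, with a median of -0.070 and 0 called. Among them Fau, a ubiquitin-like fusion of the small subunit, was -0.018 (SE 0.06). Rpl7l1, a relative of Rpl7, fell in heated minus fresh brain by 0.26 on the log2 scale (SE 0.06, adjusted p = 0.0301). The TOP list held translation factors and other genes known to carry TOP tracts, among them Npm1, Hnrnpa1 and Snhg1. It was lower in 14 of 18 genes in irradiated minus freeze-dried brain, with a median of -0.031. Other translation factors were lower in 16 of 22, with a median of -0.059. Ribosome biogenesis genes, which make and process ribosomal RNA, were lower in 35 of 45 with a median of -0.042. No gene of these lists was called there.

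The counts called in heated minus freeze-dried brain stand beside 4.11% of all features called there. In that comparison 1 of 18 genes of the TOP list fell, Eif3f at -0.29, a subunit of initiation factor 3. Of the 45 biogenesis genes 1 fell, Nop58 at -0.29, a core protein of box C/D small nucleolar particles. In the growth-control list of 22, Myc, a transcription factor that drives ribosome production, rose by 0.43 (SE 0.08, adjusted p = 0.0119), and Sesn2, an inhibitor of mTORC1 signalling, fell by 0.40 (SE 0.08, adjusted p = 0.0147). Of 10 p53-pathway genes Sesn1 fell by 0.26 and the other 9 were not called. The freeze-dried and heated groups share no slide, so these calls cannot be told apart from a difference between slides. In heated minus fresh brain, where the fresh animals span both slides, limma gave Myc 0.23 (adjusted p = 0.124) and Sesn2 -0.27 (adjusted p = 0.0698). Mitochondrial ribosomal protein genes, which form a separate ribosome, were lower in 48 of 78 genes in irradiated minus freeze-dried brain, with a median of -0.021, and in 49 of 78 in heated minus freeze-dried, with a median of -0.029 and 1 called. Respiratory-chain genes were lower in 27 of 58 in both of these comparisons. No test compared the lists with each other or with the cytosolic set.

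**Figure D5:**
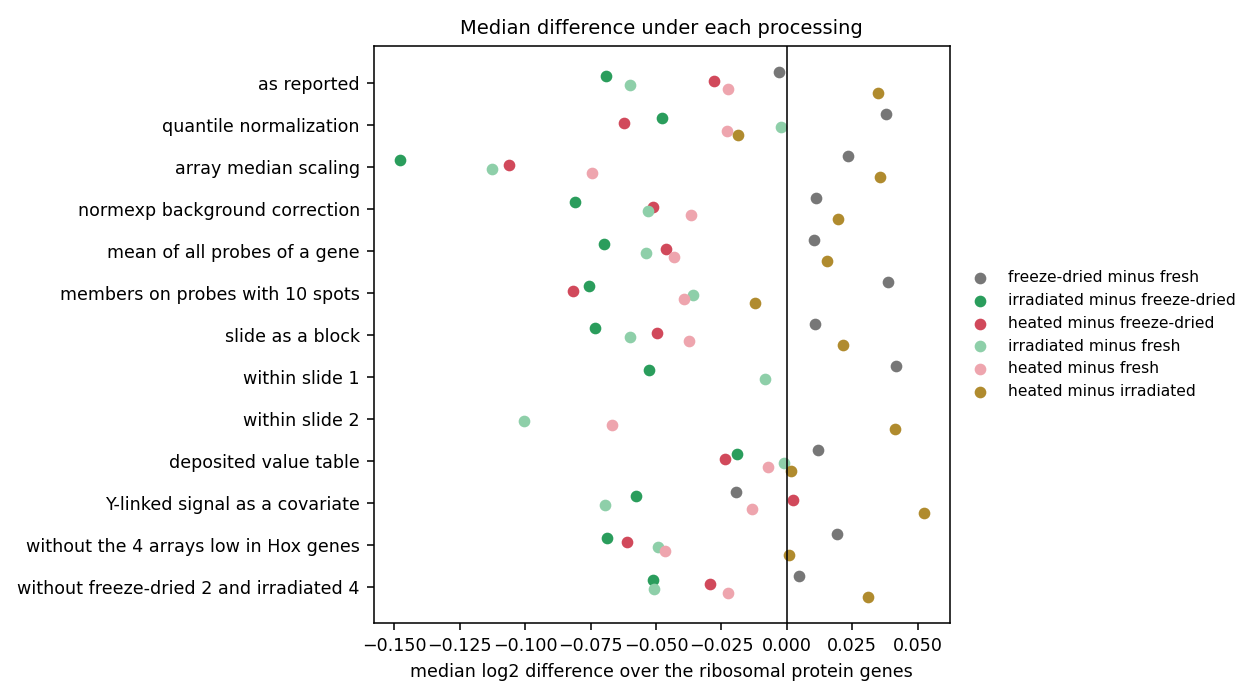
Median log2 difference over the ribosomal protein genes (x axis) under each processing (y axis), 1 colour per comparison. The irradiated minus freeze-dried median stays below 0 throughout, from -0.148 to -0.019, while the heated minus irradiated median lies on both sides of 0.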

How the data were processed

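Scanner files of 16 arrays hold intensity values that the authors deposited; the submitters' processing notes name Feature Extraction 11.0.1.1 as the scanner software. The processed signals used are its background-subtracted values. The authors' deposited log2 value table served as an alternative only; its normalization is not given in the sources used here. Control spots were left out. Of the other spot values 2043 were flagged as outliers, and these were left out where the probe had unflagged spots on that array. A probe with none left, such as a flagged probe in a single spot, kept its flagged value. Spots of a probe were averaged, and each array's 75th percentile was subtracted on the log2 scale. Probes had to be well above background on all 4 arrays of a group (34261 probes). The brightest probe stood for a gene, which gave 26477 features. Symbols came from RefSeq (GRCm38.p6) by accession. Limma 3.58.1 (R 4.3.3) fitted 4 group means with Benjamini-Hochberg adjustment over all features; calls are at an adjusted p under 0.05. The steps were tested on simulated data. Arrays limit precision by their number.

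Normexp (offset 50) used the median spot signal, since the files hold no mean signal. No protein sequences were used here. Named genes are all called members, the 3 smallest p in each direction per comparison, the 4 brightest and 4 dimmest, the 4 largest and 2 smallest SDs, the 4 with the widest probe ranges, and 20 genes of known role. Some results are not reported here. The members and lists were chosen with earlier results of these data known. Alternatives covered scaling, background, filter, probe choice, slide, replicate number, sex, value table and left-out arrays. Those on probes in 10 spots and without freeze-dried 2 and irradiated 4 were chosen after seeing the data.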

Additional observations from a re-analysis of the deposited data

Results flagged for a closer look

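In groups of 4 animals, a value was singled out when its gap to the nearest other as a share of the group's range exceeded Dixon's 95% critical value for 4 samples. Of 168 groups examined, 10 were singled out, and chance gives about 1 in 20. Fresh 1 was low for Rpl29 (6.24, others 6.42 to 6.46), Rps14 (6.48, others 6.65 to 6.66) and Rps27a (6.46, others 6.61 to 6.62). Fresh 2 was low for Rpl23 (5.59, others 5.87 to 5.91) and high for Rps4x (5.21, others 4.91 to 4.95). Irradiated 4 was low for Rpl14 (5.26, others 6.36 to 6.46) and irradiated 2 for Rpsa (6.09, others 6.20 to 6.23). Heated 3 was low for Rpl23 (5.73, others 5.87 to 5.87) and heated 4 for Rpl13a (4.41, others 4.70 to 4.76). The median over all 76 genes, after centring each gene, was 0.0223 in irradiated 1, above -0.047 to -0.055 in the other irradiated animals.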

How the results depend on the processing

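The counts of called genes other than heated minus freeze-dried stayed at 0, except 1 (Rps24) in irradiated minus fresh brain with the mean of all probes. The count of 1 in heated minus freeze-dried brain became 0 with array median scaling, no filter on dim probes, the slide as a block, the deposited table, the Y-linked covariate, after removal of the 4 Hox-low arrays, and without freeze-dried 2 and irradiated 4. It became 2 with normexp, and 3 when only the 2 groups were fitted. It ranged from 0 to 4 with 1 array left out. Replicate numbers do not pair the animals (same-number correlations -0.386 to 0.376, 10 of 24 over 0.1), and with the replicate block the count was 3. The block changed no other count.

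Medians moved with array median scaling to -0.148, -0.106, -0.113 and -0.075 (irradiated minus freeze-dried, heated minus freeze-dried, irradiated minus fresh, heated minus fresh). That scaling moved all features as well, to medians of -0.061, -0.051, -0.031 and -0.024. In the deposited table they were -0.019 (irradiated minus freeze-dried) and -0.001 (irradiated minus fresh). Quantile normalization gave -0.002 for irradiated minus fresh and -0.019 for heated minus irradiated brain, and slide 1 alone -0.008 for irradiated minus fresh. On probes in 10 spots heated minus freeze-dried gave -0.082 and heated minus irradiated -0.012. The cause was not tested.

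Single genes reversed, none of them called. On probes in 10 spots Rpl31 was 0.098 (freeze-dried minus fresh), Rpl13 0.018 and Rpl35a -0.034 (irradiated minus fresh), and Rpl3 -0.077 (heated minus fresh). In irradiated minus freeze-dried brain Rpl4 and Rps20 were -0.053 and -0.070 after removal of the Hox-low arrays. With 1 array left out Rpl4 ranged from -0.053 (without freeze-dried 2) to 0.226, Rps20 from -0.070 (without freeze-dried 2) to 0.350 and Rpl23 from -0.007 (without freeze-dried 1) to 0.175. Rpl36a was -0.037 with the slide as a block (heated minus freeze-dried). In irradiated minus fresh brain array median scaling, which moves all genes of an array together, placed Rpl35a at -0.030 and Rpl30 at -0.032. The main estimates were 0.023 and 0.02, and the cause of these sign changes was not tested. Normexp gave Rpl35a -0.066, and the mean of all probes gave Rpl35a -0.005 and Rpl30 -0.007. Rpl35a was -0.027 within slide 2. With 1 array left out Rpl35a ranged from -0.018 (without fresh 1) to 0.042, and Rpl30 from -0.006 (without irradiated 1) to 0.048. Removing the filter on dim probes moved the median of all features in heated minus freeze-dried brain from 0.027 to 0.12. The low signal of its probe limits the values of Rpl37.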
